A study of Mus musculus with 4 samples.

Results

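Cell lines grown from mouse mammary tumors were divided by how much of the keratin gene Krt14 they expressed. The lines were grouped by a measured value, selected on Krt14 alone at a threshold of 100 FPKM (fragments mapped, scaled by transcript length and by the size of the library). Of the 4 lines, 2 were Krt14-high and 2 were Krt14-low, and each side held 1 line of each genotype. The JNK_WT lines came from tumors of parous Wap-Cre+/- Trp53 LoxP/LoxP mice, labelled p53-/-. The JNK_KO lines came from parous mice of the same kind that were also Mapk8 LoxP/LoxP and Mapk9 LoxP/LoxP, labelled p53-/- JNK-/-. All the lines thus share Wap-Cre and the deletion of Trp53, the gene of the tumor suppressor p53, on a strain labelled C57BL/6 and given as C57BL6/J in the study's methods. Mapk8 and Mapk9 encode the kinases JNK1 and JNK2. The Wap promoter drives Cre in secretory mammary epithelium, and the cells passed through collagen I plates before regular dishes, so the lines hold cells that grew in culture. Each line gave 1 library. The lines are called JNK_WT 1 and JNK_KO 1 (Krt14-low) and JNK_WT 2 and JNK_KO 3 (Krt14-high). Expression was described for the 12997 of 38713 genes with 1 FPKM or more in 2 or more lines, Krt14 left out.

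The mammary epithelium has an inner luminal layer and an outer basal layer. Luminal cells carry the keratins KRT8 and KRT18, and their alveolar progenitors, which give rise to milk-secreting cells, depend on the transcription factor ELF5. Basal cells carry KRT5 and KRT14, express the transcription factor p63 (gene Trp63) and can contract through smooth muscle actin (gene Acta2). Tumor cells may keep features of either layer, or lose epithelial features and gain mesenchymal ones such as vimentin, a shift known as epithelial-mesenchymal transition (EMT).

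Krt14 (GRCm38 chromosome 11, 100203162 to 100207548, minus strand) was at 7.34 FPKM in JNK_WT 1 and 26.7 FPKM in JNK_KO 1, and at 443 FPKM in JNK_WT 2 and 313 FPKM in JNK_KO 3. The lowest Krt14-high line and the highest Krt14-low line were thus at 313 and 26.7 FPKM, and the ratio within a genotype was 60.3 in JNK_WT and 11.7 in JNK_KO. Krt5, which encodes the partner of KRT14 in basal cells, did not follow it: Krt5 (chromosome 15, 101707070 to 101712898, minus strand) was at 61.9 FPKM in JNK_WT 2 but at 0.205 FPKM in the other Krt14-high line, beside 0.0316 and 0.11 FPKM in the Krt14-low lines. The split is therefore called by Krt14 and not by a basal cell type. Fewer cells of a type and less RNA per cell cannot be told apart in these bulk libraries.

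The genotype labels were checked first. Mapk8 was at 23.9 and 19.1 FPKM in JNK_WT 1 and 2 and at 4.30 and 4.27 FPKM in JNK_KO 1 and 3, and Mapk9 was at 29.7 and 24.3 FPKM against 12.6 and 8.66 FPKM. Both were lower in each JNK_KO line than in either JNK_WT line. Trp53, deleted in all lines, was at 1.55 to 5.72 FPKM. The upper quartile of the described genes lay between 33.2 and 34.3 FPKM. Depth relative to JNK_KO 1, read from the steps of low values, was 1.06 in JNK_WT 1, 1.27 in JNK_WT 2 and 1.41 in JNK_KO 3, so both Krt14-high lines were also the deepest, and the part of depth in the differences below was not tested. Of 15 leukocyte markers measured, 13 stayed under 1 FPKM in every line and Cd3g and Tyrobp were among those listed at 0; their sum was 4.08 to 10.4 FPKM in the Krt14-high lines and 4.50 to 23.3 FPKM in the Krt14-low lines, most of it Cd68. Of 10 endothelial markers, 9 stayed under 1 FPKM, and of 7 adipocyte markers 6 did, with Plin1, Lep and Cfd listed at 0. The 17 fibroblast markers summed to 11.8 and 265 FPKM in the Krt14-high lines and to 20.9 and 170 FPKM in the Krt14-low lines, higher in both JNK_KO lines, with Dpt listed at 0 and Col1a1 under 1 FPKM in every line.

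To see which genes went with Krt14 whatever the genotype, the Krt14-high line was compared with the Krt14-low line inside each genotype on log2(FPKM + 1), a scale that understates the change of low genes. These differences share no library. Since the lines were chosen by a value measured in the same libraries, and each comparison has 1 line a side, all values along the split are a description with no test. The difference exceeded 0.75 in 3568 genes in JNK_WT and 2410 genes in JNK_KO. It exceeded 0.75 in the same direction in both genotypes for 809 genes, of which 456 were higher in the Krt14-high lines (3.51% of the genes described) and 353 were lower (2.72%). Another 403 genes passed the same size in opposite directions, so 66.7% of the 1212 genes over the threshold in both genotypes had 1 direction. Among the 11404 protein-coding genes, 362 were higher (3.17%), 273 lower (2.39%) and 256 opposed (71.3% in 1 direction). Both Krt14-high lines lay above both Krt14-low lines, with a mean difference over 0.75, for 784 genes (6.03%) and below them for 627 (4.82%). At any size of difference, the sides did not overlap for 35.8% of all genes described. Across genes the within-genotype differences had a Pearson correlation of 0.18 and a Spearman correlation of 0.14, or 0.23 and 0.15 over protein-coding genes, which are not independent replicates. Small RNA genes have short transcripts that give unsteady FPKM. Of 209 microRNA genes, 48 were opposed, 29 were higher and 25 were lower, and of 198 snoRNA genes, 35 were opposed, 15 were higher and 22 were lower. A total of 91 of the 456 higher genes and 89 of the 353 lower genes reached the expression filter only through the side where they were high. Higher and lower below mean a difference over 0.75 in the Krt14-high lines of both genotypes unless 1 line is named. Counts of gene lists stand beside 3.17% higher and 2.39% lower among protein-coding genes, and 1 such gene in a list is not read as a result.

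**Figure D1:**
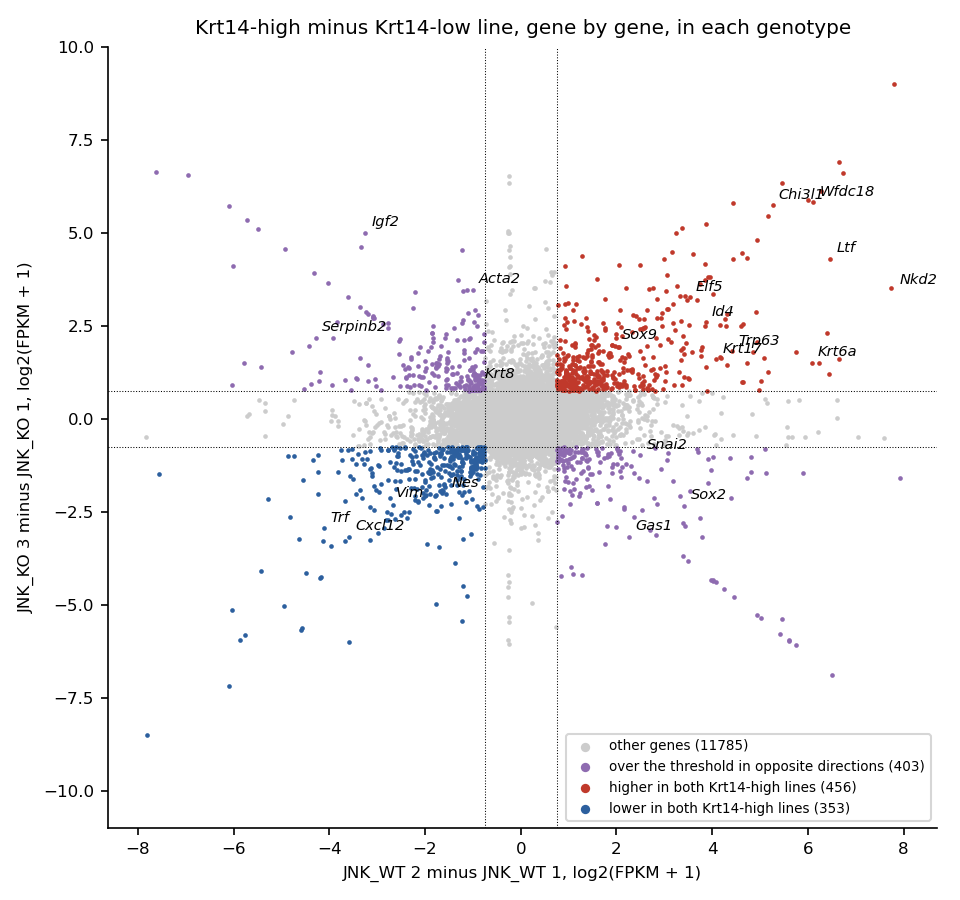
Difference between the Krt14-high and the Krt14-low line on log2(FPKM + 1) for 12997 genes, in JNK_WT (x axis) and JNK_KO (y axis). Dotted lines mark 0.75 in each direction; 456 genes lie beyond them at the upper right, 353 at the lower left and 403 in the opposed corners, where Igf2, Serpinb2, Gas1 and Sox2 sit.

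Keratins and basal genes went with Krt14 in part. Of 10 keratins described besides Krt14, 4 were higher and 0 were lower: Krt6a, Krt16, Krt17 and Krt79. Of these 4, only Krt17 is on the list of basal and myoepithelial markers given below. Krt17, a keratin of basal and stressed epithelium, was at 10.99 and 8.14 FPKM in the Krt14-low lines JNK_WT 1 and JNK_KO 1 and at 202 and 26.7 FPKM in the Krt14-high lines JNK_WT 2 and JNK_KO 3; below, values of each side are given with JNK_WT first. Krt6a, known from wounded epidermis, went from 0.0933 and 2.65 FPKM to 72.9 and 9.37 FPKM. Krt79 went from 0.463 and 0.163 FPKM to 25.1 and 5.64 FPKM. The 2 sides did not overlap for any of these, as in 35.8% of all genes described, and JNK_WT 2 had the highest value of each. Krt16 went from 0.488 and 2.78 FPKM to 3.87 and 8.02 FPKM. Krt14, Krt16 and Krt17, and likewise Krt6a and Krt6b, are close paralogs that can share reads of 40 bases, so how reads were split among them is uncertain.

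The simple keratins of luminal cells took opposite directions. Krt8 was at 1045 and 278 FPKM in the Krt14-low lines and at 564 and 526 FPKM in the Krt14-high lines, a difference of -0.89 in JNK_WT and 0.92 in JNK_KO. Krt18, its partner, went from 1466 and 385 FPKM to 752 and 789 FPKM, or -0.96 and 1.03. Both keratins were abundant in every line, and the Krt14-high lines lay between the Krt14-low lines for Krt8 and for Krt18. Krt19 went from 66.6 and 22.5 FPKM to 11.1 and 16.02 FPKM. Its sides did not overlap, as in 35.8% of all genes described, although the difference in JNK_KO was only -0.46.

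Of 14 basal and myoepithelial markers described, 3 were higher (Krt17, Trp63 and Id4) and 0 were lower, with a median difference of 0.78 in JNK_WT and 0.32 in JNK_KO beside medians over all genes of 0 and 0.01. Trp63, the master factor of basal cells, was at 0.0706 and 1.16 FPKM in the Krt14-low lines and at 21.9 and 6.58 FPKM in the Krt14-high lines. Id4, an inhibitor of differentiation found in basal cells, went from 8.26 and 8.10 FPKM to 134 and 53.9 FPKM. Both genes were higher in the Krt14-high line of each genotype. Acta2 took opposite directions. It was at 7.36 and 1.70 FPKM in the Krt14-low lines and at 3.19 and 29.0 FPKM in the Krt14-high lines. It was thus lower in JNK_WT 2 than in JNK_WT 1, and highest in JNK_KO 3. Myh11, which encodes smooth muscle myosin, and Oxtr, the oxytocin receptor gene, stayed under 1 FPKM in every line. Snai2 went from 1.52 and 5.42 FPKM to 13.2 and 2.24 FPKM, and Cdh3, the gene of P-cadherin, from 7.64 and 3.75 FPKM to 15.3 and 1.62 FPKM, so that the Krt14-high lines held both the highest and the lowest Cdh3. The basal list rested on JNK_WT 2: the median of the mean differences was 0.60, and 0.034 without JNK_WT 2 and 1.09 without JNK_KO 3.

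Luminal markers went with Krt14 in part as well. Of 26 luminal markers described, 9 were higher and 0 were lower, beside 3.17% and 2.39% of protein-coding genes. Another 2, Krt8 and Krt18, were opposed. Differences were positive in both genotypes for 14 of the 26 and negative in both for 2. Foxa1 (1.45 and -0.73), Muc1 (0.63 and -0.47), Cldn4 (-0.42 and 1.90) and Areg (3.86 and -0.21) were among those with opposite signs in JNK_WT and JNK_KO. The median difference was 0.66 in JNK_WT and 0.93 in JNK_KO. The higher ones were Elf5, Prlr, Kit, Wfdc18, Ehf, Cd24a, Esrp2, Grhl2 and Epcam. Grhl2 and Esrp2 are also taken below as regulators of the epithelial state. For Epcam the sides overlapped, since JNK_KO 3 at 286 FPKM lay below JNK_WT 1 at 360 FPKM. Elf5, the alveolar factor named above, was at 0.158 and 0.5 FPKM in the Krt14-low lines and at 12.4 and 13.5 FPKM in the Krt14-high lines. Prlr, the prolactin receptor gene, went from 0.636 and 1.49 FPKM to 6.04 and 12.7 FPKM. Kit, a receptor found on luminal progenitors, went from 0.0292 and 0.403 FPKM to 5.52 and 1.42 FPKM. Elf5 was near 0 in both Krt14-low lines and nearly equal in the Krt14-high lines, while Kit was low in all lines but JNK_WT 2. Both genes reached the expression filter only through the Krt14-high lines. The same holds for Krt79 above and for Chi3l1, Barx2, Gm10985, Slc5a8 and Epgn below. Ehf, an epithelial ETS factor, was at 12.6 and 23.2 FPKM against 50.5 and 50.4 FPKM. The genes Esr1, Pgr and Gata3 did not go with Krt14. Esr1, the estrogen receptor gene, was at 1.91 and 2.52 FPKM against 0.951 and 1.85 FPKM, Pgr, the progesterone receptor gene, stayed under 1 FPKM in every line, and Gata3 differed by genotype more than by side, at 1.79 and 1.18 FPKM in JNK_WT 1 and 2 and at 31.6 and 38.6 FPKM in JNK_KO 1 and 3.

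The genes with the largest difference in both genotypes were named by a fixed rule, the 12 protein-coding genes with the largest value of the smaller of the within-genotype differences. Among the higher ones were secreted proteins of mammary and other glands. Wfdc18, which encodes a small whey acidic protein domain protein, was at 0.246 and 1.07 FPKM in the Krt14-low lines and at 85.6 and 116 FPKM in the Krt14-high lines, differences of 6.12 and 5.83. Chi3l1, a secreted chitinase-like protein gene, went from 0.163 and 0.105 FPKM to 43.6 and 58.6 FPKM. Ltf, the gene of lactoferrin, an iron-binding milk protein, went from 0.884 and 3.25 FPKM to 166 and 83.3 FPKM. All 3 were low in the Krt14-low lines and above the upper quartile of the described genes in both Krt14-high lines.

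Transcription factors and signaling proteins made up much of the rest. Elf5, given above, was among the 12. Barx2, a homeobox factor, went from 0.056 and 0.172 FPKM to 9.16 and 13.1 FPKM. Foxj1, a factor known for motile cilia, went from 7.90 and 0.863 FPKM to 71.7 and 19.003 FPKM. Cited4, a transcriptional co-activator, went from 4.43 and 1.78 FPKM to 68.7 and 24.4 FPKM. For each of these, each Krt14-high line lay well above each Krt14-low line. Nkd2, an antagonist of WNT signaling, was at 0.428 and 7.81 FPKM against 305 and 100.2 FPKM, with a difference of 7.74 in JNK_WT and 3.52 in JNK_KO. Rassf4, a RAS association domain protein gene, was at 6.54 and 8.79 FPKM against 83.1 and 89.1 FPKM. Esyt3, an extended synaptotagmin gene, was at 0.255 and 1.13 FPKM against 11.7 and 19.99 FPKM. The sides lay far apart for these 3 genes too, and for Rassf4 the lines of a side were nearly equal. Slc5a8, a monocarboxylate transporter gene, was at 0.0418 and 0.176 FPKM against 19.6 and 7.26 FPKM. The remaining gene, Gm10985, was listed at 0 in both Krt14-low lines and at 23.6 and 21.1 FPKM in the Krt14-high lines; its annotated exon is only 81 bases long, so its values may rest on few reads.

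Sequence upstream of the leading genes that went with Krt14 is shown so that their control regions can be compared. The windows are the 250 bases before the transcript start, 5′ to 3′ on the gene's strand, from RefSeq on GRCm38.p6. Krt5 is shown because it encodes the partner of KRT14, and Wfdc18, Chi3l1 and Ltf because they are the first of the leading higher genes with a window in the table. The Krt14 window in the table lies inside the gene and is not shown. Capitals mark CAGGTG or its reverse complement, the E-box that repressors of the SNAI and ZEB families can bind.
Krt5 (chr15:101712906-101713155, minus strand): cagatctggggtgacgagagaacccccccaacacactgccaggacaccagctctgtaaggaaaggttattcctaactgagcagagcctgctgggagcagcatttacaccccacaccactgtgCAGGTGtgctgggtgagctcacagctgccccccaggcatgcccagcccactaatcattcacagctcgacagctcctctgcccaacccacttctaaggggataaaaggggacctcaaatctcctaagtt
Wfdc18 (chr11:83708754-83709003, plus strand): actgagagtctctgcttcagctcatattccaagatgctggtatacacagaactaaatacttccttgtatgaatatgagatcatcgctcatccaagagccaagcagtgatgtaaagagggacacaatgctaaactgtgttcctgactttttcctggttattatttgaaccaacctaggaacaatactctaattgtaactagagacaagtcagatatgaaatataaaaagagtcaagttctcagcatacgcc
Chi3l1 (chr1:134181906-134182155, plus strand): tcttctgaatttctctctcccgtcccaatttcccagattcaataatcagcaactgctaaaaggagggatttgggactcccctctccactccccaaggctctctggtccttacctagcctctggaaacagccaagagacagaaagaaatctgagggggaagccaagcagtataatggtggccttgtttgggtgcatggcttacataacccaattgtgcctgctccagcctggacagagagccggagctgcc
Ltf (chr9:111019042-111019291, plus strand): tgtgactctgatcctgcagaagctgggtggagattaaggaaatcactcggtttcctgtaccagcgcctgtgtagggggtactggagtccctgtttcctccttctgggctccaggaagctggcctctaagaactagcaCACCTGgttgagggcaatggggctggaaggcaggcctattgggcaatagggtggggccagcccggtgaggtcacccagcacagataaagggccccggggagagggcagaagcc
The E-box began at position -128 from the transcript start in Krt5 and at -113 in Ltf, and these letters were not in the windows of Wfdc18 and Chi3l1. CAGGTG was in 17.2% of all 32851 windows of the table on either strand. The AP-1 site TGANTCA (in 6.75% of all windows) and the TEAD site GGAATG (in 12.6%) were searched on both strands as well and were in none of the 4 windows. Windows were matched for 65.2% of the protein-coding genes that were higher and 73.6% of those that were lower, under the 80% needed, so a comparison of motif shares between these sets is void and none is given.

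The 12 leading lower genes included genes of the extracellular space and of mesenchymal cells. Cxcl12, a chemokine made by stromal cells, was at 17.2 and 44.9 FPKM in the Krt14-low lines and at 0.52 and 4.11 FPKM in the Krt14-high lines, differences of -3.58 and -3.17. Ogn, which encodes the matrix proteoglycan osteoglycin, went from 6.03 and 4.68 FPKM to 0.112 and 0.143 FPKM. Sema7a, a membrane-anchored semaphorin gene, went from 5.09 and 6.51 FPKM to 0.129 and 0.318 FPKM. Ogn and Sema7a were thus close to absent from the Krt14-high lines, and both reached the expression filter only through the Krt14-low lines. So did Bcat1 and Gimap9 and, further below, Bmp7, Cdkn1c, Mest and Pparg. Trf, the gene of the iron carrier transferrin, went from 124 and 286 FPKM to 6.22 and 36.3 FPKM. This was in the opposite sense to Ltf, another gene of this iron-binding family. Calcb, a calcitonin gene-related peptide gene, was at 16.9 and 19.01 FPKM against 0.397 and 1.04 FPKM. Bcat1, the gene of the cytosolic branched-chain aminotransferase, was at 8.02 and 9.40 FPKM against 0.275 and 0.571 FPKM. The others were the protease genes Tmprss11e and Adam8, the transporter gene Slc43a3, the GTPase gene Gimap9, the Notch ligand-like gene Dlk2 and the scavenger receptor gene Scarf2, with differences from -2.22 (Adam8 in JNK_KO) to -3.66 (Adam8 in JNK_WT). In all 12 the sides did not overlap, as in 35.8% of all genes described, and the choice of these genes by size favored this.

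**Figure D2:**
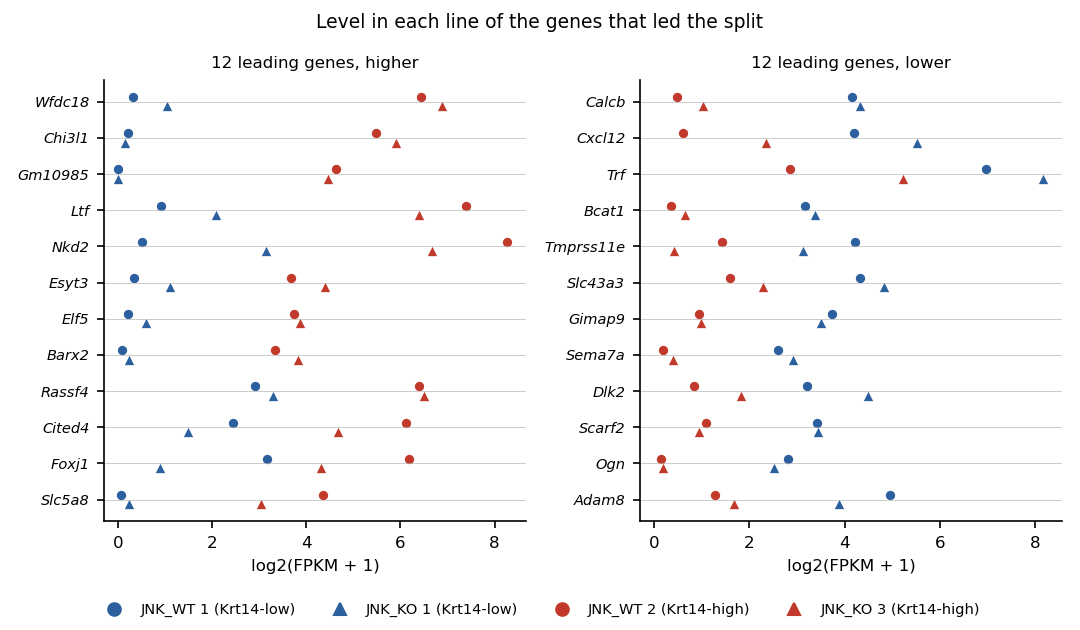
Level of the 12 leading higher genes (left) and the 12 leading lower genes (right) as log2(FPKM + 1) in each of the 4 lines; circles are JNK_WT, triangles JNK_KO, red Krt14-high and blue Krt14-low. Red and blue points are apart for each of the 24 genes, which were chosen for large differences. Wfdc18 goes from 0.246 and 1.07 FPKM to 85.6 and 116 FPKM.

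Cell junction genes were next. Desmosomes are plaques that tie the keratin filaments of neighboring cells together. Of 10 desmosome genes described, 7 were higher and 0 were lower, beside 3.17% and 2.39% of protein-coding genes. The median was 1.07 in JNK_WT and 1.21 in JNK_KO. Dsg3, the basal desmoglein gene, was at 0.145 and 1.09 FPKM in the Krt14-low lines and at 14.9 and 7.01 FPKM in the Krt14-high lines. Dsg2, the desmoglein gene of most epithelia, went from 7.29 and 4.41 FPKM to 21.2 and 22.8 FPKM, and Dsc2, its desmocollin counterpart, from 4.63 and 2.00 FPKM to 11.4 and 10.46 FPKM. The plaque genes Dsp (desmoplakin), Jup (plakoglobin) and Pkp1 (plakophilin 1) and the membrane gene Perp were the other members that were higher. Jup, the most abundant of these plaque genes, was at 216 and 93.2 FPKM against 478 and 195 FPKM, so that for Jup the line JNK_KO 3 stayed below JNK_WT 1. Pkp2, Pkp3 and Pkp4 did not pass 0.75 in both genotypes. With any 1 line left out, the median of the mean differences over the list stayed between 0.90 and 1.496. Among 15 tight junction genes, 2 were higher (Cxadr and Marveld3) and 0 lower, with medians of 0.27 and 0.90; the median of the mean differences was 0.70, and 0.42 without JNK_KO 1. Cldn3 and Cldn7, claudin genes that seal the space between luminal cells, had positive differences in both genotypes that were under 0.75 in JNK_WT (0.45 and 0.68).

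Hemidesmosomes anchor basal cells to laminin-332 of the basement membrane, and this list had negative medians. Of 9 such genes described, 0 were higher and 2 were lower (Lama3 and Dst), with medians of -0.30 and -0.75. Lama3, the laminin alpha 3 gene, was at 7.26 and 12.4 FPKM in the Krt14-low lines and at 3.50 and 1.498 FPKM in the Krt14-high lines. Dst, the gene of the plakin that binds keratin to hemidesmosomes, went from 28.9 and 19.6 FPKM to 4.57 and 11.2 FPKM. Itgb4, the gene of the integrin beta 4 chain, was at 35.6 and 19.8 FPKM against 178 and 31.4 FPKM, higher in JNK_WT 2 and just under the threshold in JNK_KO (0.64). Of the 9 genes, 6 were negative in both genotypes and 1 was positive in both. The median of the mean differences ranged from -0.78 to -0.37 with 1 line left out.

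Mesenchymal genes had negative medians. Of 17 EMT regulators and mesenchymal markers, all of them described, 0 were higher and 6 were lower, beside 3.17% and 2.39% of protein-coding genes. The medians were -1.09 in JNK_WT and -0.99 in JNK_KO. Vim, the gene of vimentin, was at 331 and 500.4 FPKM in the Krt14-low lines and at 47.2 and 159 FPKM in the Krt14-high lines. Zeb2, which represses epithelial genes, went from 6.20 and 10.6 FPKM to 0.914 and 3.22 FPKM. Cdh2, the gene of N-cadherin, went from 48.2 and 9.19 FPKM to 14.7 and 1.70 FPKM, and here JNK_KO 1 lay below JNK_WT 2. Twist2 and Prrx2, both mesenchymal transcription factors, and the receptor gene Axl were also lower. Axl was at 462 and 355 FPKM against 113 and 190 FPKM. The regulators were not of 1 direction: Snai2 and Tgfbi were higher in JNK_WT 2 than in JNK_WT 1 (2.50 and 2.19) and lower in JNK_KO 3 than in JNK_KO 1 (-0.99 and -1.21), and Snai1 was lower only in JNK_WT (-2.09, beside 0.05 in JNK_KO). Of the regulators of the epithelial state, Grhl2 was at 15.7 and 9.13 FPKM against 31.2 and 21.9 FPKM, and Esrp2, a splicing factor gene of epithelium, at 7.74 and 10.4 FPKM against 17.5 and 25.7 FPKM, and both were higher. Esrp1 and Ovol1 were under the threshold in JNK_WT (0.64 and 0.65), and Elf3 had differences of -0.71 and 0.41. Cdh1, the gene of E-cadherin, was at 121 and 58.4 FPKM against 115 and 127 FPKM, with a difference of only -0.07 in JNK_WT. With 1 line left out, the median of the mean differences stayed between -1.31 and -0.69 for the mesenchymal list and between 0.68 and 0.98 for the luminal list.

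**Figure D3:**
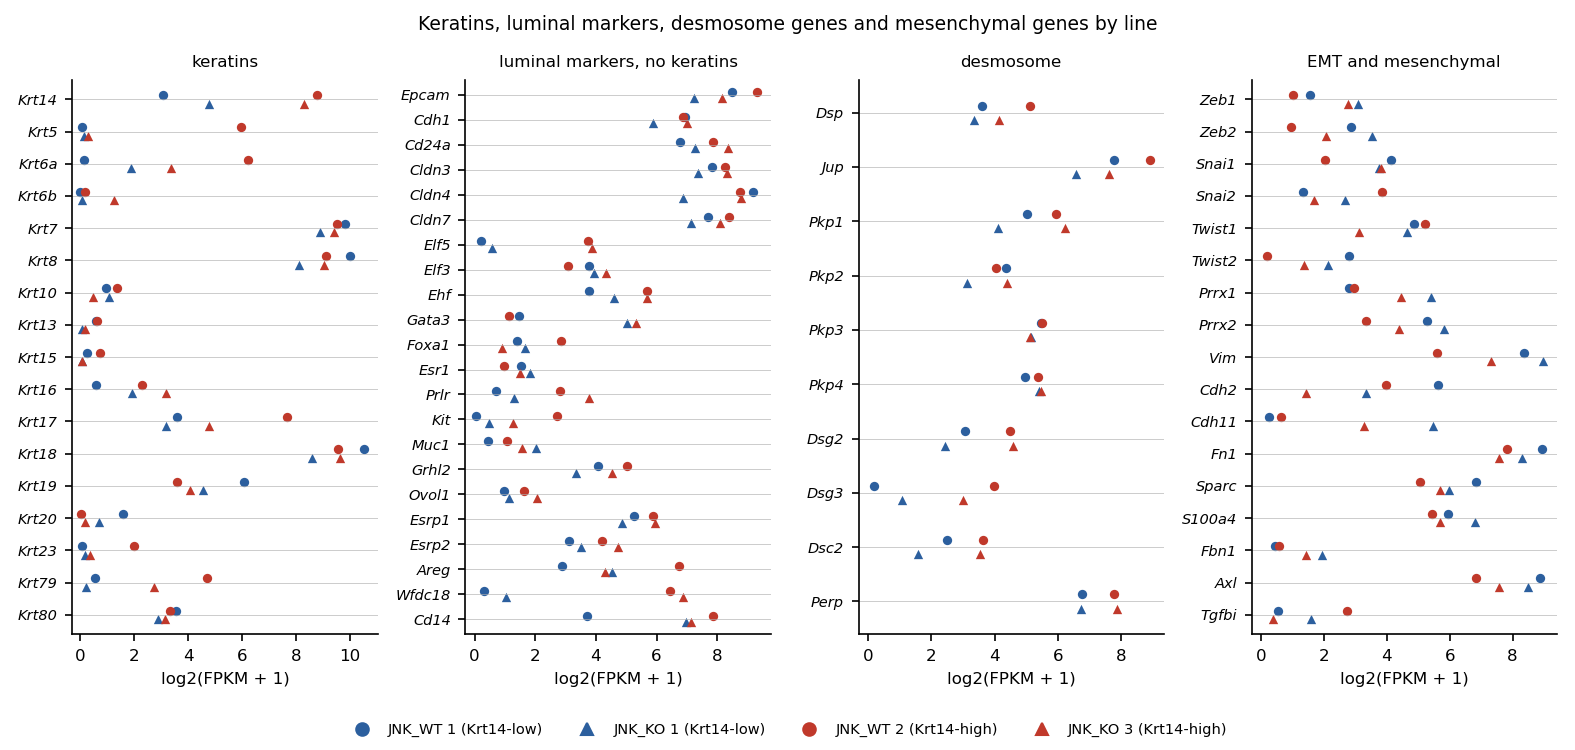
Level as log2(FPKM + 1) in each line of the keratins, the described luminal markers other than keratins, the desmosome genes and the mesenchymal genes; circles are JNK_WT, triangles JNK_KO, red Krt14-high and blue Krt14-low. Red lies to the right of blue within each shape for Krt14, Krt17, Elf5 and Dsg3, and to the left for Vim and Zeb2, while Krt5 stands out in JNK_WT 2 alone.

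Genes linked to p63 and to squamous differentiation had positive medians. Of 14 p63-linked genes described, 3 were higher, Trp63 and Perp among them, and 1 was lower (Dst), with medians of 1.35 and 0.67. Of 13 squamous genes described, 6 were higher and 1 was lower, with medians of 0.76 and 0.62. Ly6d, a surface protein gene of squamous and early alveolar cells, went from 0.188 and 11.9 FPKM to 15.1 and 45.6 FPKM, and Anxa8 from 21.6 and 36.5 FPKM to 46.7 and 102.5 FPKM. In both genes JNK_KO 1 came close to JNK_WT 2, the lower of the Krt14-high lines. Klk10, a kallikrein protease gene, was the lower member, at 4.49 and 9.59 FPKM against 1.18 and 2.05 FPKM. Of the genes of terminal squamous cells, Tgm1 was higher, while Lor (0.75 and -0.51) and Sprr1a (-0.49 and -1.52) were not higher in both genotypes, and Ivl, Flg and Krt1 did not reach the filter. The median of the mean differences over the squamous list was 1.06, and it fell to 0.55 without JNK_KO 1, 0.61 without JNK_WT 1 and 0.36 without JNK_WT 2.

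Among signaling pathways, no list had 1 direction throughout. Of 24 WNT genes described, 4 were higher and 1 was lower, with medians of 0.25 and -0.14. The higher ones were Nkd2, Wnt5b, Sfrp1 and Lgr4. Wnt5b, a ligand of the noncanonical branch, was at 0.0756 and 1.24 FPKM against 7.36 and 11.6 FPKM. Sfrp1, a secreted WNT inhibitor gene, was at 3.11 and 6.48 FPKM against 28.3 and 32.9 FPKM. Axin2, the common readout of canonical WNT signaling, had differences of 0.53 and -0.64. Wnt7a was the lower member (-4.85 and -1.003). Of the 24 genes, 7 were positive in both genotypes and 7 were negative in both.

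NOTCH genes had a positive median in JNK_WT and one near 0 in JNK_KO, a contrast that was not tested. Of 11 described, 3 were higher and 0 were lower, and the median was 1.19 in JNK_WT and -0.03 in JNK_KO. The median of the mean differences was 0.77, and 0.28 without JNK_WT 1 and 0.36 without JNK_WT 2. Notch3, a receptor gene, went from 0.366 and 1.64 FPKM to 12.5 and 5.30 FPKM. Hes1, a target gene of NOTCH receptors, went from 21.9 and 14.5 FPKM to 109.7 and 37.7 FPKM, and Hey1, another target, from 0.0374 and 1.07 FPKM to 0.894 and 2.52 FPKM. Both receptor and targets were higher in either Krt14-high line than in its Krt14-low partner, but Hey1 was lower in JNK_WT 2 than in JNK_KO 1.

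AP-1 factors pair JUN and FOS proteins, and JNK is known for acting on JUN. Of 10 AP-1 genes described, 2 were higher (Fos and Junb) and 0 lower. Fos was at 2.17 and 5.34 FPKM in the Krt14-low lines and at 36.7 and 21.2 FPKM in the Krt14-high lines, and Junb at 110.5 and 149 FPKM against 232 and 289 FPKM. Jun itself had differences of 0.06 and -0.70. Of 27 TGF-beta and BMP genes, 1 was higher (Inhbb) and 2 were lower (Ltbp1 and Bmp7). Of 16 YAP and TEAD target genes described, 1 was higher and 1 lower: Ctgf went from 286 and 86.3 FPKM to 566 and 751 FPKM, and Axl is given above. Of 11 EGF family genes 1 was higher (Epgn). Areg, the amphiregulin gene, was at 6.32 and 21.9 FPKM against 105.0 and 18.8 FPKM, high in JNK_WT 2 alone.

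Of 12 stem and progenitor markers described, 3 were higher (Sox9, Kit and Ly6a) and 2 lower (Nes and Procr). Sox9, a factor of luminal progenitors and stem cells, was at 33.2 and 25.3 FPKM in the Krt14-low lines and at 133 and 102 FPKM in the Krt14-high lines, with the same difference of 1.97 in each genotype. Procr, a marker of a proposed basal stem cell, went from 35.0 and 13.6 FPKM to 8.73 and 4.33 FPKM, and Nes, the gene of nestin, from 16.1 and 5.47 FPKM to 4.76 and 0.601 FPKM. Markers of this list therefore lay on both sides of the split.

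Cell cycle genes had mostly negative differences of small size. Of 25 proliferation genes, all described, 0 were higher and 1 was lower (Bub1b), beside the 2.72% of all genes that were lower. The medians were -0.36 and -0.52, and 17 of the 25 had negative differences in both genotypes, as did 26.2% of all genes described. Of 12 genes of D cyclins and CDK inhibitors, 0 were higher and 2 were lower, with medians of -0.63 and -0.52; the median of the mean differences was -0.52, and -0.26 without JNK_WT 1 and -0.34 without JNK_KO 3. Ccnd1, the cyclin D1 gene, was at 773 and 841 FPKM in the Krt14-low lines and at 297 and 428 FPKM in the Krt14-high lines. Cdkn1c, the p57 gene, was at 6.06 and 1.93 FPKM against 0.228 and 0.71 FPKM. Ccnd1 was among the more abundant genes on either side. The CDK inhibitor gene Cdkn2a was at 549 and 530 FPKM against 239 and 323 FPKM, with a difference in JNK_KO of -0.71.

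Proteases and their inhibitors held 4 higher and 2 lower genes of 23. Timp3, a matrix-bound inhibitor of metalloproteinases, was at 17.3 and 209 FPKM against 458 and 1235 FPKM, and Serpinb5, the maspin gene, at 7.95 and 6.25 FPKM against 28.5 and 42.5 FPKM. Timp3 was also higher in the JNK_KO line of each side. Plat, the tissue plasminogen activator gene, went from 17.8 and 7.62 FPKM to 1.43 and 2.57 FPKM. Of 27 cytokine genes described, 2 were higher (Il1a and Lif) and 3 were lower (Cxcl12, Csf2 and Cxcl10), and 5 were opposed. Of the integrins, Itgb8 was higher and Itga2 lower among 13 described. The 28 interferon-stimulated genes had 0 higher and 0 lower members, with medians of -1.23 in JNK_WT and -0.19 in JNK_KO. Of these 28 genes, 19 were negative in both genotypes, as were 26.2% of all genes described, and 1 was positive in both. Their median of the mean differences was -0.70, but it was positive without JNK_KO 1 (0.21) and without JNK_WT 2 (0.76), and it was -1.72 without JNK_WT 1 and -2.09 without JNK_KO 3. The fibroblast list of 10 described genes and the 20 genes of cholesterol and fatty acid synthesis also had 0 of either direction. Of 22 collagen and basement membrane genes 1 was lower (Lamb1), and of 16 S100 and annexin genes 1 was higher (Anxa8). Of 21 glycolysis and hypoxia genes 1 was lower (Egln3), of 17 glutathione genes 1 was lower (Gpx3), and of 10 imprinted genes 2 were lower (Mest and Cdkn1c). Pparg, the adipogenic receptor gene, was the 1 described adipocyte marker and was lower.

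**Figure D4:**
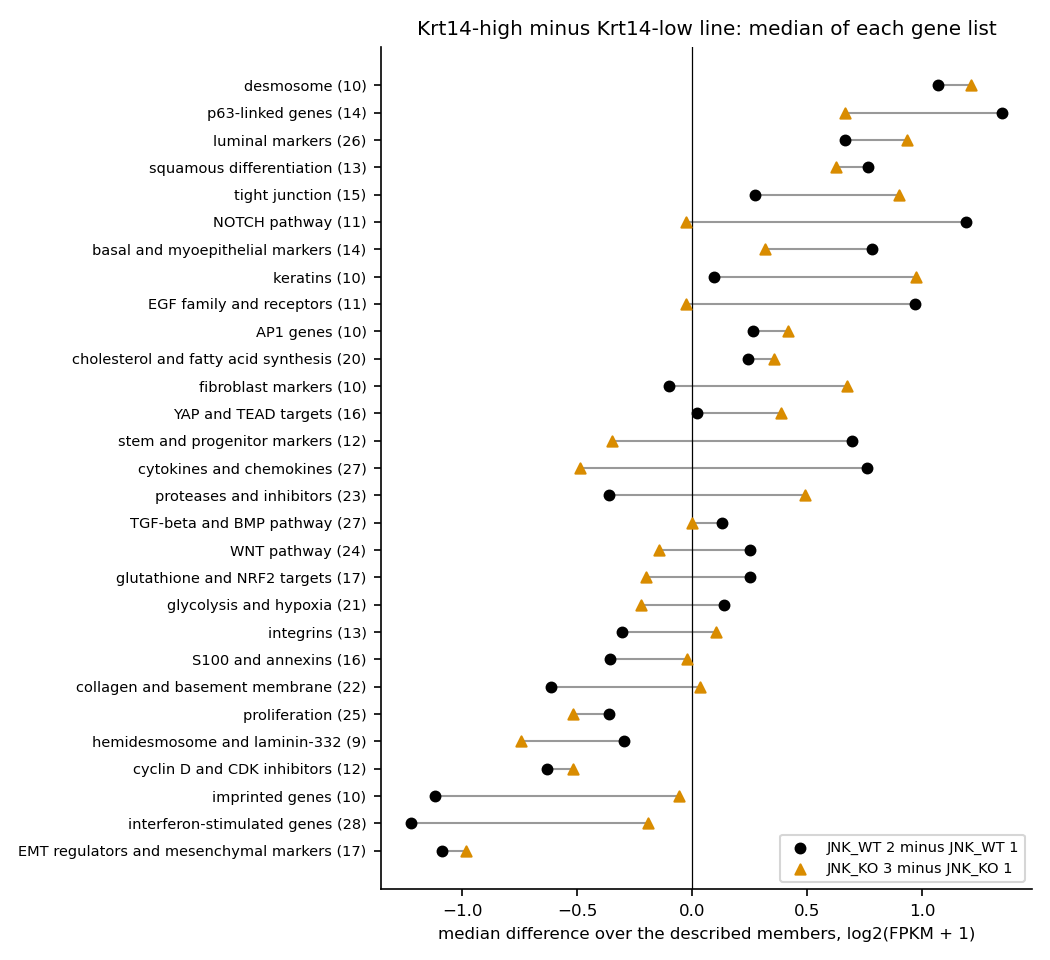
Median difference between the Krt14-high and the Krt14-low line over the described genes of each list with at least 5 of them, on log2(FPKM + 1); circles are JNK_WT, triangles JNK_KO, and the number of genes is in parentheses. The desmosome list is at 1.07 and 1.21 and the mesenchymal list at -1.09 and -0.99, close in both genotypes, while the cytokine, stem cell and protease lists lie on opposite sides of 0.

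Because tumor lines differ in chromosome copies, which also moves expression, the split was set against chromosomes. Chromosome 11, which holds Krt14, Krt17, Wfdc18 and Sox9, was shifted by 0.43 in JNK_WT and 0.08 in JNK_KO relative to the median of all genes, and 56 of its 1097 genes were higher (5.10%, beside 3.51% of all genes). This share was 5.57% on chromosome 12, 5.56% on chromosome 13 and 5.06% on chromosome 14. In JNK_WT, chromosomes 5, 17 and 18 were shifted by 0.32, 0.29 and 0.29. In JNK_KO, chromosomes 16 and 12 were shifted by 0.36 and 0.30. These 6 chromosomes had the largest shifts in 1 genotype, and in the other genotype none of them was shifted by more than 0.08 in the same direction. Smaller shifts of like size in both genotypes, JNK_WT first, were seen on chromosome 14 (0.18 and 0.15), chromosome 2 (-0.19 and -0.16), chromosome 7 (-0.17 and -0.16) and chromosome 19 (-0.16 and -0.14). The leading genes had been chosen for large differences, so their size beside these shifts is no measure of copy number. The part of copy number in the split was not tested.

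**Figure D5:**
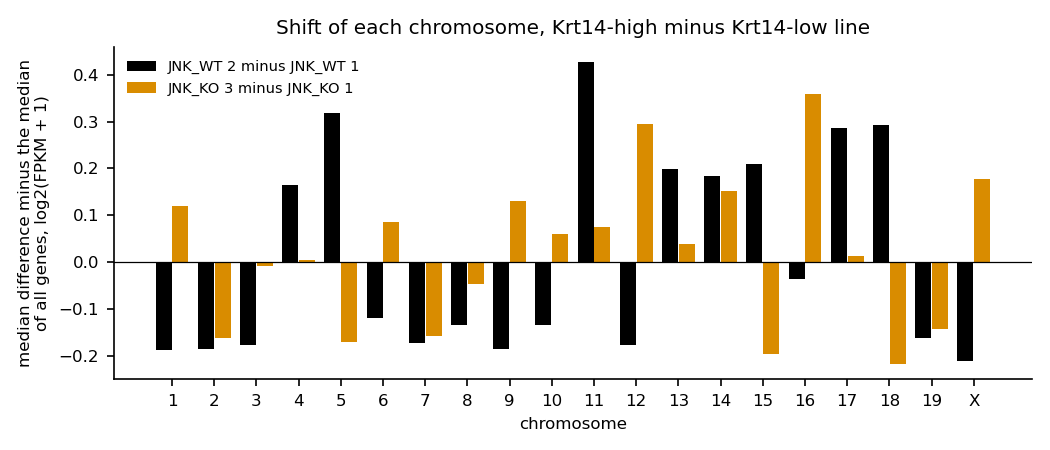
Median difference between the Krt14-high and the Krt14-low line for the genes of each chromosome, minus the median of all genes, on log2(FPKM + 1); black bars are JNK_WT and orange bars JNK_KO. Chromosome 11 is highest in JNK_WT at 0.43 and chromosome 16 in JNK_KO at 0.36.

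Genotype is the comparison that the split did not use. The limma test of JNK_KO against JNK_WT lines, 2 lines each, over 12998 genes including Krt14 called 0 genes (0%) at a Benjamini-Hochberg adjusted p under 0.05 and a log2 difference over 0.75, with a smallest adjusted p of 0.0515. A total of 992 genes had an unadjusted p under 0.05. With other pseudocounts or without the intensity trend the test called 10 to 14 genes. Mapk8 had a log2 difference of -2.08 (SE 0.29, limma adjusted p = 0.191) and Mapk9 of -1.28 (SE 0.31, limma adjusted p = 0.429). Of the 456 genes that were higher along the split, 14 (3.07%) had an unadjusted genotype p under 0.05, and of the 353 lower genes 21 (5.95%) did, beside 7.63% of all genes described. The fit takes the difference between lines of 1 genotype as its error, so genes that differ along the split have a large error in it by construction. The median absolute genotype difference was 0.49 for the higher and 0.53 for the lower genes, beside 0.27 for all genes described. Their median absolute differences along the split were 1.55 and 1.58, beside 0.29 for all genes described. The values along the split are large by selection, so they are not weighed against those of genotype. Trp63 had a genotype difference of -0.29 (SE 1.62).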

How the data were processed

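RNA of 4 mammary tumor cell lines was sequenced with single-end reads of 40 bases, 1 library per line. The authors trimmed the reads, aligned them to mm10 (GRCm38) with TopHat2 2.0.14 and Bowtie2, and computed the deposited FPKM with Cufflinks 2.2.1. The study describes subsampling of reads for its comparison of these lines with other cells. Whether the deposited FPKM rest on subsampled reads was not established here. The gene annotation is not given in the sources used here, and strand-specific libraries are not stated. Cufflinks shares reads among overlapping transcripts by estimate, so paralogs can trade reads and short genes are unsteady. No read totals were used, so no interval that needs a count is given.

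Of 38741 rows, 27 with symbols turned into calendar dates and 1 without a value were left out. Positions and biotypes came from GENCODE M21 on GRCm38, matched by symbol for 98.4% of the 12997 genes described. Lines and genotypes were taken from the labels. The side of each line, the members, the 32 gene lists and the naming rule were chosen with earlier results of these data known. Nothing was tested along the Krt14 split. The differences were taken on log2(FPKM + 1) within each genotype, with 0.75, the size the study used, as the threshold. Genes named were the keratins, basal and luminal markers, Mapk8, Mapk9 and Trp53, the 12 leading genes of each direction among protein-coding genes reaching 5 FPKM in 1 line, the 3 leading members of each list and the 5 most opposed genes; any other gene named was chosen after its values were seen. A few genes of the lists are not reported here, though they are part of the counts.

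Genotype was tested with limma 3.58.1 (a linear model per gene, moderated by eBayes with a trend on the level, two-sided, Benjamini-Hochberg) in R 4.3.3 on the same log2 scale, and the counting and the fit were tested on simulated data. The sources used here do not say whether all lines of a genotype come from separate mice, so p-values measure only the spread between these lines, which may be technical in part. Windows upstream of genes came from RefSeq. Python 3.11.15, pandas 2.3.3 and matplotlib 3.10.9 were used. Other pseudocounts, filters, scalings, thresholds, variance models and fits without each line were run, and protein-coding genes alone were added after seeing the data.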

Additional observations from a re-analysis of the deposited data

Results flagged for a closer look

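Genes and lists are given here whose Krt14-high line lay above the Krt14-low line in 1 genotype and below it in the other. The difference between genotypes was not tested in any of them, since each rests on 1 line a side. Values are log2(FPKM + 1) differences, Krt14-high minus Krt14-low, in JNK_WT and then in JNK_KO.

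The luminal keratin genes Krt8 (-0.89 and 0.92) and Krt18 (-0.96 and 1.03) were opposed, as was Acta2 of smooth muscle actin (-0.997 and 3.47). The P-cadherin gene Cdh3 (0.91 and -0.86) and the EMT factor gene Snai2 (2.50 and -0.99) were opposed in the other sense.

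The most opposed genes were Igf2 (-3.25 and 5.005), an imprinted growth factor gene, Sox2 (3.42 and -2.34), a stem cell factor gene, Gas1 (2.27 and -3.17), Serpinb2 (-4.28 and 2.18), an inhibitor of plasminogen activators, and Gxylt2 (2.16 and -2.37). Igf2 was at 9.11 and 3.37 FPKM in the Krt14-low lines and at 0.0599 and 139 FPKM in the Krt14-high lines, so a single line, JNK_KO 3, holds its high level. Sox2 was at 9.95 FPKM in JNK_WT 2 and 4.16 FPKM in JNK_KO 1 and near 0 in the other lines.

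The lists of proteases and inhibitors (medians of -0.36 and 0.49), cytokines and chemokines (0.76 and -0.49) and stem and progenitor markers (0.69 and -0.35) were opposed in their medians. These are the lists of at least 5 described genes whose medians were over 0.3 in size in both genotypes; other lists had medians of opposite sign with a smaller size. With 1 line left out, the median of the mean differences ranged from -0.26 to 0.67 for proteases (lowest without JNK_KO 3), from -0.63 to 1.72 for cytokines (negative without JNK_WT 1 or JNK_KO 3) and from -0.25 to 0.77 for stem cell markers (positive only without JNK_KO 1).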

How the results depend on the processing

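Each value along the split rests on 1 line per genotype and side, so no spread among lines of the same genotype and side can be had, and no count of reads gives the precision of a low FPKM. The sides stayed as they were at Krt14 thresholds of 50 and 200 FPKM. Under other pseudocounts, no filter, quantile normalization and upper quartile scaling, the counts of genes stayed within 1.5 times the value given, with 421 to 585 genes higher in both genotypes and 363 to 495 lower. A filter at a mean of 5 FPKM, which tests fewer genes, left 225 genes lower, 265 opposed and 401 lower with lines that do not overlap. A threshold of 1 gave 280 higher, 218 lower and 232 opposed genes, with 510 and 402 genes whose lines do not overlap. Protein-coding genes alone, added after seeing the data, gave 256 opposed genes. With 1 line left out, which leaves fewer lines to overlap, 1171 to 1603 genes were higher and 790 to 1345 lower with lines that do not overlap: 1195 and 1208 without JNK_WT 1, 1171 and 790 without JNK_WT 2, 1603 and 1268 without JNK_KO 1, and 1372 and 1345 without JNK_KO 3. The Pearson correlation stayed between 0.14 and 0.23 and the Spearman correlation between 0.11 and 0.15.

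Genotype calls went from 0 to 10 with a pseudocount of 0.1 and to 14 with a pseudocount of 0.5 or without the intensity trend, and were 0 without any 1 line; the cause was not tested. No paired analysis of genotype was made, because the labels do not pair lines across genotypes.

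The mean difference of Igf2 went from 0.88 to -0.26 with a pseudocount of 0.1. With 1 line left out, the mean difference changed sign in 6 of the named genes where it was over 0.75 in size. It ranged from -2.65 to 4.40 for Igf2 and from -0.18 to 2.66 for Acta2 (both lowest without JNK_KO 3). It ranged from -0.31 to 1.82 for Snai2 and from -0.25 to 2.71 for Tspan12 (both lowest without JNK_WT 2). For Serpinb2 it ranged from -3.16 to 1.06 (highest without JNK_WT 1) and for Cxcl10 from -4.42 to 0.40 (highest without JNK_KO 1). Sign changes of smaller mean differences were not counted, so this is no total over all named genes. Krt8, with a mean difference of 0.014, was left out of the count in this way. Without JNK_KO 1, both Krt14-high lines lay below the remaining Krt14-low line for Krt8. Of 116 medians of lists with 1 line left out, 37 moved by more than the spread between genotypes, and of 174 under other settings 6 did; for single genes these counts were 165 of 484 and 61 of 484.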

Other observations

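Further genes that followed the split were found after their values were seen, and no test was made of them. The Iroquois homeobox genes encode patterning factors. All 4 of the 6 family members that were described were higher in both Krt14-high lines, beside 3.51% of all genes described. Irx1 was at 14.4 and 24.6 FPKM in JNK_WT 1 and JNK_KO 1 and at 168 and 103 FPKM in JNK_WT 2 and JNK_KO 3. Irx2 was at 65.1 and 54.9 FPKM against 203 and 160.3 FPKM, Irx3 at 0.849 and 6.00 FPKM against 7.07 and 31.9 FPKM, and Irx5 at 0.65 and 6.10 FPKM against 10.502 and 15.4 FPKM. Irx4 and Irx6 were near 0 in every line.

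Of 23 milk, whey and alveolar genes collected in the same manner, 13 were described, 7 of them higher, 0 lower and 1 opposed. Of all genes described, 3.51% were higher. The list was collected after the values were seen and holds the leading genes Wfdc18, Ltf, Elf5 and Cited4, so its count is no test. The opposed gene was Btn1a1, with differences of -2.42 in JNK_WT and 1.35 in JNK_KO. Lcn2, a secreted iron-scavenging protein gene, went from 59.1 and 642 FPKM to 1892 and 1100 FPKM, and Slpi, a secreted protease inhibitor gene, from 17.2 and 394 FPKM to 449 and 789 FPKM. The casein gene Csn2 was not among the higher genes: it was at 0.869 and 0.698 FPKM against 0.545 and 5.88 FPKM. Csn3, another casein gene, was at 8.23 FPKM in JNK_WT 1 and under 1 FPKM in the other lines. Wap and Lalba were at or near 0 in every line. Glycam1 was at 30.9 FPKM in JNK_KO 3 and at 0.548 FPKM or less in the other lines.

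Among lower genes, Ackr3, a receptor for CXCL12, was lower together with Cxcl12, from 4.12 and 11.6 FPKM to 0.283 and 2.92 FPKM. The efflux pump genes Abcb1a and Abcb1b, close paralogs that can share reads, went from 11.04 and 9.97 FPKM to 0.211 and 1.53 FPKM and from 4.87 and 12.1 FPKM to 0.546 and 2.75 FPKM. Some of the largest differences belonged to a single line. Cxcl5, a neutrophil chemokine gene, was at 2.29 FPKM in JNK_WT 1 and between 630 and 1425 FPKM in the other lines, and Serpine2 was at 0.911 FPKM in JNK_WT 1, 140.2 FPKM in JNK_WT 2 and 27.3 and 21.2 FPKM in JNK_KO 1 and 3.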
